A study of Mus musculus with 4 samples.

Results

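The AP-1 transcription factor genes examined here were Fos, Fosb, Fosl1, Fosl2, Jun, Junb, Jund, Batf, Batf3 and Atf3. Their members in the data were the accessible chromatin regions that the deposited annotation assigned to one of these 10 genes as the gene of the nearest transcription start site (TSS). A region was a set of overlapping ATAC-seq peaks of the libraries, and 96 of 60710 regions belonged to the 10 genes. ATAC-seq marks open DNA by the insertion of adapters with the Tn5 transposase. It was performed on wild-type bone marrow-derived macrophages (BMDMs) of mice aged 8 to 12 weeks. All cells, controls included, had grown for 6 days in L929 supernatant, a source of the macrophage growth factor MCSF. Control cells received no further stimulus and the others a stimulus of 20 ng/ml IL-4 that lasted 1 h, with 2 libraries per group from separate biological replicates according to the methods. The comparison asks whether accessibility at the AP-1 genes differed after IL-4, which signals through STAT6. Bulk chromatin was measured, so a different share of open cells and a different degree of opening per cell cannot be told apart.

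AP-1 factors are basic leucine zipper (bZIP) proteins that bind DNA as dimers. A FOS protein needs a JUN partner, whereas JUN proteins also pair with each other, and BATF, BATF3 and ATF3 join JUN proteins as further partners. The dimers recognise the AP-1 site (TGACTCA or TGAGTCA), and several of the genes are immediate early genes that serum, growth factors and microbial products switch on within minutes through kinases and the serum response factor SRF. In macrophages AP-1 acts at enhancers together with lineage factors such as PU.1.

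The following sequences are given because the results refer to them. All were read from the plus strand of the mouse genome mm10 (GRCm38). The first 5 carry the CArG box, the DNA element bound by SRF, which is written in capitals. The Fos region at -308 bp lay at chr12:85473516-85473675 and the Fosb region at -329 bp at chr7:19310233-19310472, both annotated as promoters. The Fos site at +12179 bp lay at chr12:85486099-85486138. The Junb sites at -1218 bp and +2103 bp lay at chr8:84980144-84980183 and chr8:84976609-84976648. These last 3 are shown with 15 bases on either side of the box.
Fos -308 bp: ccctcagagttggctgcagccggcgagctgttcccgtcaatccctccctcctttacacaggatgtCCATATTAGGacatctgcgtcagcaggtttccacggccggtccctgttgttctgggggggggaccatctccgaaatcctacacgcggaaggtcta
Fosb -329 bp: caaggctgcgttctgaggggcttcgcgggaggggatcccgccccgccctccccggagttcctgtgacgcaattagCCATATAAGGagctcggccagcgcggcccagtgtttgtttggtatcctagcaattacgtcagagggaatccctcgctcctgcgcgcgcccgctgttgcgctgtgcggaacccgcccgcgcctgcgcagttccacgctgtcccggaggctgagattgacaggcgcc
Fos +12179 bp: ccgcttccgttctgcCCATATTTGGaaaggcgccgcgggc
Junb -1218 bp: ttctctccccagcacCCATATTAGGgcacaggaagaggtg
Junb +2103 bp: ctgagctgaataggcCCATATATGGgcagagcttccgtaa

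The next 3 regions had peaks in both libraries of 1 group and none in the other group. They were picked from such regions because they hold an AP-1 site. Those at Jun -217739 and -164027 bp, Batf +90 bp and Atf3 +769 bp held none. The Jun region at -84088 bp (chr4:95136189-95136391) was found with IL-4 alone, and the Fosl2 region at -200295 bp (chr5:31936032-31936291) and the Atf3 region at -6688 bp (chr1:191189942-191190149) in control cells alone. Capitals mark AP-1 sites and, in the Jun region, also the STAT motif in which TTC and GAA are 4 bases apart, the spacing that STAT6 prefers.
Jun -84088 bp: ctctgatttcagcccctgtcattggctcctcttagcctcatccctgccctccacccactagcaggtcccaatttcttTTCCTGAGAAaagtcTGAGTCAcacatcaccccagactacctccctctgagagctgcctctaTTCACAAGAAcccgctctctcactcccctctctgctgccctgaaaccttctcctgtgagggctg
Fosl2 -200295 bp: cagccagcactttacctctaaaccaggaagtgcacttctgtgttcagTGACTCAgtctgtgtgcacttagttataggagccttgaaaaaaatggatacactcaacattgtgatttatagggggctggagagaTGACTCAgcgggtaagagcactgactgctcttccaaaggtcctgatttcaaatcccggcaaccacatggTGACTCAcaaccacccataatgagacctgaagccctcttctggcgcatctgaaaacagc
Atf3 -6688 bp: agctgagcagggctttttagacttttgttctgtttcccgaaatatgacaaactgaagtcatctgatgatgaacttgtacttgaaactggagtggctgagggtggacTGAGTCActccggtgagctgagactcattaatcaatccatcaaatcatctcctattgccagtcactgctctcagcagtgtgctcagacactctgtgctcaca

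The last sequences come from Batf3, whose 4 tested regions all had a positive log2 difference in height with IL-4. They were picked because they hold a STAT motif. The tested Batf3 regions at -70 bp and +27790 bp held none. The motif with a spacing of 4 also lay in regions that were lower with IL-4, at Batf -16439 bp and Fos +50006 bp. The STAT motif with a spacing of 4 is in capitals in the Batf3 sites at chr1:191085940-191085979 and chr1:191111206-191111245, which belong to the regions at -12587 bp and +12937 bp. The Batf3 promoter window (RefSeq, GRCm38.p6, 250 bases before the TSS, chr1:191098164-191098413) holds a STAT motif with a spacing of 3 (TTCNNNGAA), again in capitals. This site starts at -239 bp of the TSS, outside the accessible promoter region at -70 bp.
Batf3 -12587 bp: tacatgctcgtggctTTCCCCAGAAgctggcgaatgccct
Batf3 +12937 bp: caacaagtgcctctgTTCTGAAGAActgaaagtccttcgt
Batf3 promoter: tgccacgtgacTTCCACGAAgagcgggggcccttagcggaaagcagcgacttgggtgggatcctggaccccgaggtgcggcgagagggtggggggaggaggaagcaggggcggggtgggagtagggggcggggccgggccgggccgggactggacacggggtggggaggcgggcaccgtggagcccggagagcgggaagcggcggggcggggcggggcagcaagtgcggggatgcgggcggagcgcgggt

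Peaks of AP-1 genes numbered 76 and 71 for control cells and 72 and 61 for IL-4-treated cells (replicate 1, then replicate 2). The IL-4 minus control difference of -7.0 peaks was within the spread of the libraries (73.5 ± 3.54 and 66.5 ± 7.78, SD, n = 2 each; exact permutation test over libraries, two-sided, p = 0.6667, where the smallest possible p is 0.3333). The second IL-4 library had the fewest. Of the 96 regions, 45 had a peak in all 4 libraries (46.9%, against 41.9% of all regions), 12 in 3 libraries, 18 in 2 and 21 in 1. The 12 regions in 3 libraries lacked their peak in the second IL-4 library 8 times, in the first IL-4 library 2 times and in the second control library 2 times.

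**Figure D1:**
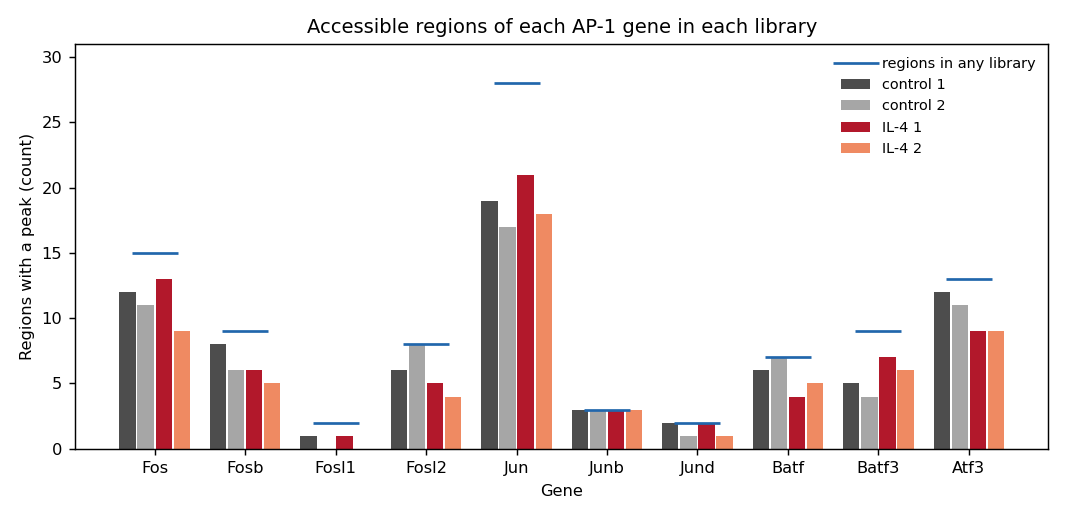
Number of regions with a peak (y axis) for each AP-1 gene (x axis) in each of the 4 libraries (bars), with the number of regions in any library as a blue line. Jun has the most regions (28), Fosl1 and Jund the fewest (2 each), and for Fosl2, Batf and Atf3 both IL-4 bars are below both control bars. For Batf3 both are above.

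The genes differed widely in how many regions they held. Jun had 28, Fos 15, Atf3 13, Fosb and Batf3 9 each, Fosl2 8, Batf 7, Junb 3, and Jund and Fosl1 2 each. At Fosl2, 6 and 8 regions had a peak in control cells and 5 and 4 after IL-4, and at Atf3 12 and 11 against 9 and 9, so the groups did not overlap at either gene. At Batf3 the order was the opposite, with 5 and 4 regions in control cells and 7 and 6 with IL-4. At Batf, 6 and 7 regions had a peak in control cells and 4 and 5 after IL-4. With 2 libraries per group none of these counts can reach significance in a permutation test. The share of all genes whose counts separate the groups in this way was not determined. The second IL-4 library also had the fewest peaks of any gene (39462, against 41885 to 45250 in the others).

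Most regions of the AP-1 genes were distal and intergenic. Of the 96, 68 (70.8%, or 63.2% without Jun) were more than 10 kb from the TSS, against 56.7% of all regions, and 73 (76.0%, or 69.1% without Jun) were annotated as intergenic, against 35.8%. Promoter regions made up 11 of 96 (11.5%, against 18.8%) and introns 8.3% (against 40.2%). The median distance was 23663 bp, and it was 13581 bp without the regions of Jun (14419 bp for all regions). At Jun, a gene of a single exon on the minus strand of chr4:95049036-95052222, the regions reached from -251287 bp to +514 bp of the TSS. The Fos regions lay between -36639 and +59386 bp, and those of Atf3 between -66845 and +769 bp. Batf lies 212.8 kb downstream of Fos on chromosome 12, with the bZIP gene Jdp2 between them, and the TSSs of Batf3 and Atf3 are 84.9 kb apart on chromosome 1. Assignment to the nearest TSS therefore divides these intervals between neighbouring bZIP genes, and which gene a distal region acts on was not measured.

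**Figure D2:**
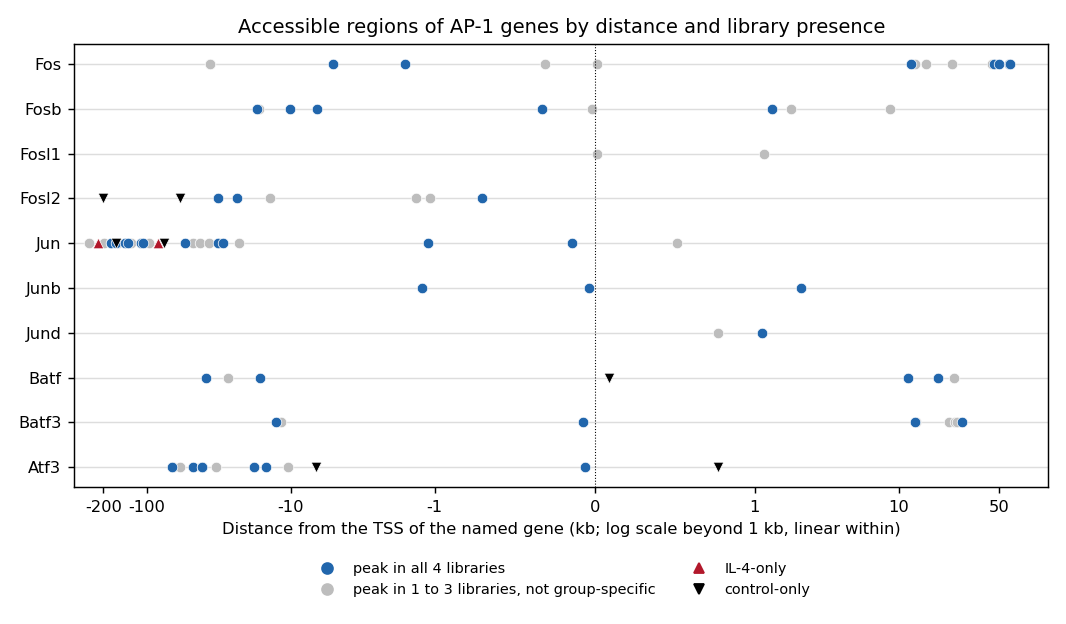
Position of the 96 regions relative to the TSS of their gene (x axis, kb, logarithmic beyond 1 kb on either side) for each AP-1 gene (y axis). Blue circles are regions with a peak in all 4 libraries, grey circles regions in 1 to 3 libraries, red triangles IL-4-only and black triangles control-only regions. Both IL-4-only regions belong to Jun, and the 7 control-only regions are spread over Fosl2, Jun, Batf and Atf3.

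The strength of a peak is given as peak height, the deposited peak score, taken here to be −log10 q from the peak caller. No AP-1 region passed the test for a difference in height. The test was limma on quantile-normalised log2 heights, applied to those 25442 regions that every library shared. At an adjusted p under 0.05 it called 4 regions higher with IL-4 (0.0157%) and 2 lower (0.00786%), of which 0 belonged to the AP-1 genes. At an unadjusted p under 0.05, 1 of the 45 AP-1 regions was higher and 2 were lower, against 4.12% and 4.15% of all regions tested. The median log2 difference was 0.036 for the AP-1 regions and -0.001 for all regions, with 23 of 45 above 0. The AP-1 median was below 0 when any 1 library was left out (-0.092 to -0.001), so its sign is not settled. Those medians cover the AP-1 regions with a peak in every remaining library, 45 to 54 of them. The 95% interval of a single AP-1 region, which is not adjusted for the number of regions, reached 0.96 to either side (median) and spanned 0 at 42 of the 45.

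Normalised heights of both IL-4 libraries lay below both control libraries at 15 of the 45 AP-1 regions (33.3%), against 18.6% of all regions tested. They lay above both control libraries at 7 (15.6%), against 19.2%. The 15 lower regions came from Jun, Batf and Atf3 (3 each) and from Fos, Fosb and Fosl2 (2 each). The 7 higher regions came from Batf3 (3), Atf3 (2), Jun (1) and Junb (1). Heights as deposited overlapped between the groups at the higher regions Jun -178396 bp, Batf3 -12587 and +12937 bp, and Atf3 -41120 bp. Among the lower regions they overlapped at Atf3 -47367 bp. Before normalisation, the median height of the 45 regions was 10.48 and 10.74 for control cells and 8.82 and 7.57 after IL-4, while that of all regions tested was 12.52 and 11.01 against 11.14 and 8.86. Quantile normalisation sets the distribution over all regions equal. After it, the median log2 difference of the 45 regions was 0.036, with 23 of them above 0.

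**Figure D3:**
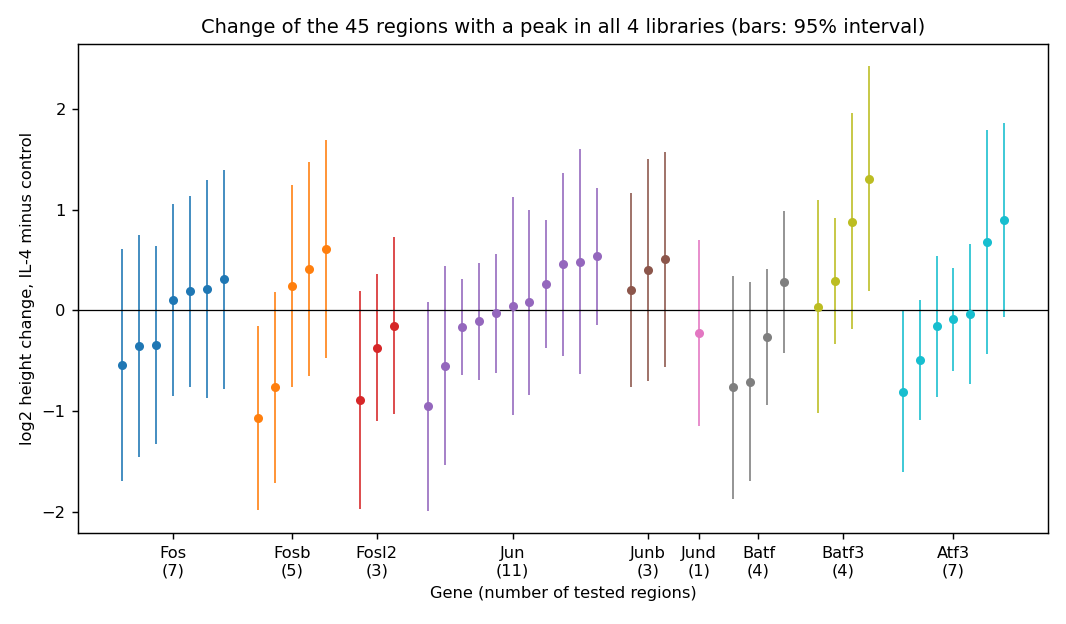
Log2 difference in peak height, IL-4 minus control (y axis), for the 45 tested AP-1 regions grouped by gene (x axis, number of regions in brackets). Points are limma estimates from 2 libraries per group and bars are 95% intervals. All 4 Batf3 and all 3 Junb points are above 0 and all 3 Fosl2 points below 0, and 42 of the 45 bars cross 0.

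Among the FOS genes, Fos encodes the founding member and is an immediate early gene (plus strand, chr12:85473890-85477274). Its promoter held 2 separate regions. The region at -308 bp, which carries the CArG box of the serum response element, had heights of 3.51 and 3.86 in control cells and 8.81 in the first IL-4 library, with no peak in the second. The region at +12 bp had heights of 6.79 and 4.46 in control cells and 6.37 in the first IL-4 library, again with no peak in the second. The second IL-4 library thus had no peak at the Fos promoter while the first had both. The highest Fos region present in all libraries lay at +12179 bp and carries the second CArG box, with heights of 17.65 and 5.42 in control cells and 10.86 and 8.42 with IL-4. Its control values spanned both IL-4 values (log2 difference 0.19, SE 0.47, limma adjusted p = 0.9508), and the sign turned to -0.57 without the second control library. Over its 7 tested regions Fos had a mean log2 difference of -0.059 (SD over regions 0.34). Without the first IL-4 library the mean was 0.041. Without the second it was 0.055, but that mean also takes in regions that lack a peak in that library alone. The 2 promoter regions are among them, so this value is not for the same set of regions.

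Fosb, a FOS relative that is also an immediate early gene (minus strand, chr7:19302696-19310118), held the most negative value of all AP-1 regions. It was the intergenic region at -6567 bp (chr7:19316310-19316915, 606 bp), with heights of 18.95 and 13.25 in control cells and 4.93 and 8.62 with IL-4. Both IL-4 libraries were below both control libraries, and the log2 difference was -1.06 (SE 0.45, limma adjusted p = 0.5353). It was -0.48 without the first and -1.61 without the second IL-4 library. The region at -10095 bp lay in the same direction, with 12.03 and 14.05 against 9.68 and 4.41, and a log2 difference of -0.76. The Fosb promoter region at -329 bp, which carries a CArG box as at Fos, had heights of 6.46 and 10.21 in control cells and 7.86 and 8.29 with IL-4, so the groups overlapped. A second promoter region at -17 bp had a peak of 7.37 in the first control library alone.

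Fosl2, which encodes FRA-2, lies on the plus strand at chr5:32136472-32157840, and all of its tested regions were lower with IL-4. At -32163 bp the heights were 10.87 and 8.78 in control cells and 7.96 and 2.49 with IL-4, a log2 difference of -0.88 (SE 0.54, limma adjusted p = 0.6943). It was -0.21 without the second IL-4 library and -1.53 without the first. At -23725 bp, its highest region, they were 17.52 and 16.60 against 13.47 and 9.50 (log2 difference -0.37). In both regions the groups did not overlap, with the lowest height in the second IL-4 library. At the promoter (-707 bp) the heights were 10.48 and 14.28 against 13.52 and 6.42, the groups overlapped, and the sign of the log2 difference of -0.15 turned to 0.22 without the second IL-4 library and to 0.16 without the second control library. The mean over the 3 regions was -0.47 (SD 0.38). Over the Fosl2 regions with a peak in every remaining library, it was -0.83 without the first and -0.33 without the second IL-4 library. Fosl1, which encodes FRA-1, had no region with a peak in more than 1 library. Its promoter region (+14 bp, chr19:5447651-5447774) had a peak of 3.62 in the first IL-4 library, and its intron 1 region at +1164 bp had a peak of 7.11 in the first control library.

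Among the JUN genes, Jun had a promoter region with a peak in every library. Heights at -140 bp (chr4:95052024-95052766) were 16.10 and 18.30 in control cells and 17.31 and 18.57 with IL-4. The groups overlapped, and the log2 difference was 0.26 (95% interval -0.38 to 0.90, limma adjusted p = 0.8859). Leaving out 1 library gave 0.064 (without the second IL-4 library) to 0.45 (without the first). The highest AP-1 region in the data was the intergenic Jun region at -53954 bp (chr4:95105958-95106382), with 29.38 and 29.73 in control cells and 26.60 and 21.26 with IL-4. These heights lay at the 94.9th to 97.7th percentile of the peaks of their libraries. The IL-4 values were both below the control values, with a log2 difference of -0.17 (SE 0.24) that was -0.083 without the second control library and -0.26 without the first. The region at -163099 bp had 14.60 and 8.63 in control cells against 3.99 and 6.18 (log2 difference -0.95, SE 0.52, limma adjusted p = 0.646), and the difference was -0.45 without the first and -1.45 without the second IL-4 library. The region at -178396 bp, farther out, went the other way, with a log2 difference of 0.54 after normalisation (SE 0.34). Its heights were 16.84 and 11.48 in control cells and 19.55 and 15.56 with IL-4, so as deposited the groups overlapped. Over the 11 tested Jun regions the mean was 0.006 (SD 0.45), with 6 above and 5 below 0. When 1 library was left out, the mean over the Jun regions with a peak in every remaining library lay between -0.08 and 0.11.

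Junb, a JUN gene whose product can restrain JUN activity (minus strand, chr8:84976909-84978748), had 3 compact regions, all with a peak in every library. The promoter region at -33 bp had heights of 5.84 and 5.55 in control cells and 6.27 and 7.57 with IL-4. Both IL-4 values were above both control values, with a log2 difference of 0.51 (95% interval -0.56 to 1.57, limma adjusted p = 0.8647). It was 0.21 without the second IL-4 library and 0.83 without the first. The regions with a CArG box had 11.13 and 6.97 against 8.55 and 8.64 at -1218 bp, and 4.10 and 6.61 against 6.81 and 4.88 at +2103 bp, just past the end of the gene, and in both the groups overlapped. The mean over the 3 regions was 0.37 (SD 0.15). Jund, a JUN gene active in resting cells, had no promoter region by the annotation. Its 2 regions were annotated to the 5' UTR of its only exon (plus strand, chr8:70697739-70700616), and the one at +1134 bp had 9.78 and 12.77 in control cells and 8.85 and 7.37 with IL-4. Its log2 difference was -0.23 (SE 0.46) and turned to 0.053 without the second control library.

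**Figure D4:**
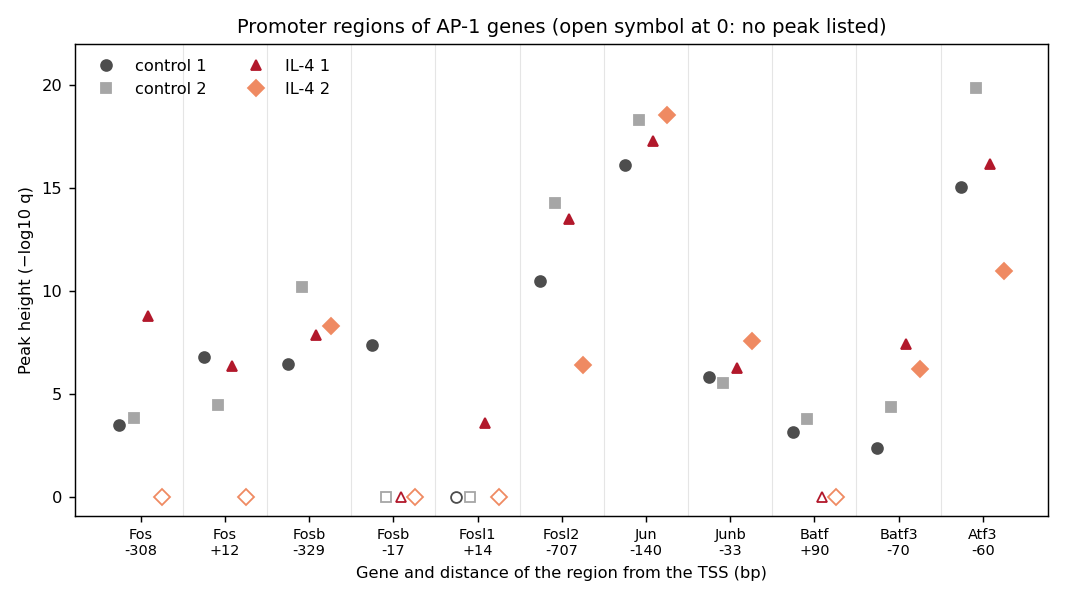
Peak height (y axis, −log10 q) of the 11 promoter regions of the AP-1 genes (x axis, gene and distance from the TSS in bp) in the 4 libraries, with open symbols at 0 where no peak is listed. The Batf3 and Junb promoters (at -70 and -33 bp) have both IL-4 libraries above both controls, Batf (+90 bp) has peaks in control cells alone, and the second IL-4 library has no peak at 5 of the 11.

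Batf and Batf3 encode short bZIP proteins that lack a transactivation domain and pair with JUN proteins, and BATF3 is known for its need in cross-presenting dendritic cells. Batf3 (plus strand, chr1:191098414-191108943) held the most positive value of all AP-1 regions, at its promoter. Heights at -70 bp (chr1:191098212-191098477) were 2.39 and 4.38 in control cells and 7.43 and 6.21 with IL-4. Both IL-4 values were above both control values and the log2 difference was 1.31 (SE 0.55), but it did not pass the test over all regions (limma adjusted p = 0.5308). The first control height was at the 1.4th percentile of the peaks of its library, and without that library the log2 difference was 0.74. In the reference genome 35.3% of the bases of this region are soft-masked as repeats. At +12937 bp the heights were 7.06 and 3.74 against 6.97 and 9.28, with a log2 difference of 0.88 after normalisation (SE 0.53, limma adjusted p = 0.6925). That difference was 0.50 without the second control and 0.54 without the second IL-4 library. At -12587 bp, the highest Batf3 region, they were 17.77 and 16.57 against 20.71 and 16.10 (log2 difference 0.29 after normalisation). At these 2 regions the heights as deposited overlapped, and the normalised ones did not. The mean over the 4 tested regions was 0.63 (SD 0.57) and stayed between 0.59 and 0.68 when any 1 library was left out.

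At Batf (plus strand, chr12:85686720-85709087) the promoter had no peak with IL-4. The region at +90 bp (chr12:85686696-85686954) had low peaks of 3.17 and 3.78 in control cells and none with IL-4, and was therefore control-only. All but 1 of its 4 tested regions were lower in both IL-4 libraries. The values were 8.34 and 6.18 against 2.95 and 4.46 at -16439 bp (log2 difference -0.76, SE 0.55), and 10.44 and 11.91 against 6.62 and 5.05 at -38523 bp (log2 difference -0.70, SE 0.49). The highest Batf region, at +18937 bp in intron 2, had 21.44 and 16.07 against 15.59 and 11.56 (log2 difference -0.26, limma adjusted p = 0.8953, and -0.14 without the first control and -0.39 without the second control library). The other intron 2 region, at +11599 bp, had 16.37 and 13.83 against 13.07 and 19.54 and overlapped. The mean over the 4 regions was -0.36 (SD 0.49). Without the first IL-4 library it was -0.10, over the Batf regions with a peak in every remaining library.

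Atf3 encodes a stress-induced bZIP repressor that limits inflammatory gene expression in macrophages (minus strand, chr1:191170296-191183333). Its promoter region at -60 bp had heights of 15.06 and 19.87 in control cells and 16.18 and 10.99 with IL-4. The groups overlapped, and the log2 difference of -0.16 turned to 0.14 without the second control library. The highest Atf3 region, at -47367 bp, had 27.40 and 24.91 against 25.50 and 18.91 (log2 difference -0.089, SE 0.25, and between -0.15 and -0.025 when 1 library was left out). A pair of upstream regions lay in opposite directions. At -41631 bp the heights were 6.07 and 7.96 in control cells and 12.72 and 9.28 with IL-4 (log2 difference 0.89, SE 0.48, limma adjusted p = 0.6401, and 0.59 without the first control library). At -18028 bp they were 15.82 and 19.70 against 12.24 and 6.09 (log2 difference -0.80, SE 0.40, limma adjusted p = 0.5994). Neither pair of groups overlapped, and of all 7 tested regions 2 were above and 5 below 0.

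Regions specific to 1 group were few. The IL-4-only regions numbered 2 of 96 (2.08%, against 2.53% of all regions) and the control-only regions 7 (7.29%, against 4.33%). Both IL-4-only regions were intergenic and upstream of Jun. The one at -84088 bp had heights of 5.34 and 6.43, and the one at -217739 bp (chr4:95269873-95270050) had 5.34 and 2.49. The control-only regions at Fosl2 lay within introns of the neighbouring gene Babam2, with heights of 12.68 and 7.46 at -200295 bp and 5.65 and 2.66 at -59088 bp. Those at Jun had 3.99 and 6.42 at -164027 bp and 4.38 and 2.66 at -75957 bp. The remaining ones were the Batf promoter region and the Atf3 regions at -6688 bp (5.84 and 4.94) and at +769 bp in intron 1 (5.49 and 5.79). All but the Fosl2 region at -200295 bp had heights under 7, and a peak absent from a list is not a measured absence of accessibility. Leaving out 1 library, which asks fewer libraries to hold or lack a peak, gave 2 to 10 IL-4-only and 9 to 15 control-only regions, the highest counts being without the second and the first IL-4 library, respectively.

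Motifs were counted in the 96 regions beside all regions. Within 200 bases around the highest peak, 20 AP-1 gene regions (20.8%) held an AP-1 site on either strand, against 17.1% of all 60710 regions. The CArG box was in 4 (4.17%, against 1.05%), and in 5 when the whole region was searched (5.21%, against 1.2%), namely the Fos, Fosb and Junb regions printed above. None of the 5 was group-specific, and the CArG box of the Junb region at -1218 bp lies in soft-masked repeat sequence. The STAT motif with a spacing of 4 was in 5 (5.21%, against 6.32%) within the window, but in 10 (10.4%, against 7.22%) when whole regions were searched, so its order relative to all regions depended on the search. That with a spacing of 3 was in 6 (6.25%, against 5.85%), and the cAMP response element TGACGTCA in 0 (against 0.96%). In whole regions they were in 7 (7.29%, against 6.9%) and 1 (1.04%, against 1.22%), the latter being the Jund region at +1134 bp. Of the 9 AP-1 promoter windows matched in RefSeq (250 bases before to 50 after the TSS, all members but Fosl1), the Batf3 window alone held a searched motif, the STAT motif with a spacing of 3, which 8.30% of 32851 promoters held.

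An AP-1 site was present in 4 of the 7 control-only regions, namely both Fosl2 regions, Jun at -75957 bp and Atf3 at -6688 bp, against 22.7% of all control-only regions. The Fosl2 region at -200295 bp had 3 such sites, of which 2 lie in soft-masked repeat sequence that covers 64.6% of it, and the only site of the Fosl2 region at -59088 bp is soft-masked as well. The IL-4-only Jun region at -84088 bp had 1 AP-1 site and 2 STAT motifs with a spacing of 4, while the IL-4-only region at -217739 bp had none of these. Among all IL-4-only regions 29.8% held that STAT motif and 15.9% an AP-1 site. Of the 7 AP-1 regions whose normalised heights were higher in both IL-4 libraries, 2 held a STAT motif with a spacing of 4 within the window of 200 bases (28.6%, against 10.7% of all such regions), and 4 did in the whole region (Jun at -178396 bp, Batf3 at -12587 and +12937 bp, and Atf3 at -41631 bp), against 15.2%. As deposited, the heights of the Jun region and both Batf3 regions overlapped between the groups. Of the 15 lower regions, 2 held that STAT motif by either search (13.3%), namely Batf at -16439 bp and Fos at +50006 bp. The shares over all such lower regions were 2.33% in the window and 5.50% in the whole region. This count was chosen after the heights had been seen, and with 7 and 15 regions it is a description.

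Other genes of the pathway gave no call either. For the counts below, 4.12% of all regions tested were higher and 4.15% lower at an unadjusted p under 0.05. The list of other bZIP partners had 17 genes, 15 of them with a region, and none of its 66 tested regions passed the limma threshold, with 1 higher and 1 lower at an unadjusted p under 0.05 and a median log2 difference of -0.02. The region with the lowest p lay at -62861 bp of Bach1, a bZIP repressor of heme and antioxidant genes, with 9.09 and 5.33 in control cells and 20.06 and 14.52 with IL-4 (log2 difference 1.51, SE 0.43, limma adjusted p = 0.2355). The list of kinases and nuclear factors that drive AP-1 genes had 21 genes and 60 tested regions, none past the threshold, with 1 higher and 3 lower at an unadjusted p under 0.05 and a median of -0.08. There the lowest p was at -5907 bp of Elk3, a partner of SRF, with 25.79 and 23.10 in control cells and 9.33 and 7.86 with IL-4 (log2 difference -1.31, SE 0.35, limma adjusted p = 0.2121).

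The libraries held 39462 to 45250 peaks, and the second IL-4 library had the fewest peaks and the lowest median height (6.41, against 7.46 to 8.04). The macrophage label was checked at promoters of marker genes. Of 8 macrophage markers 5 had a promoter peak, and Adgre1, Cd68, Fcgr1 and Lyz2 had one in all 4 libraries, while Csf1r, Itgam and Spi1 had no region annotated as their promoter (peaks carry 1 gene name each). The T cell, B cell, erythroid, fibroblast and endothelial markers (3 each) had none, and of 3 neutrophil markers only S100a8 had one, in all 4 libraries. Without the second IL-4 library, 54 AP-1 regions had a peak in each of the remaining 3 libraries.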

How the data were processed

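ATAC-seq was analysed in 4 libraries of BMDMs (control and IL-4, 2 each). According to the submitters' processing notes the authors used BWA 0.7.10, SAMtools 0.1.19, MACS2 2.0.10 and HOMER 4.2 with mm10. Peaks were called per library without pooling replicates and blacklisted regions were removed. Read shifting and duplicate handling are not given in the sources used here. The deposited score, whose unit no source states, was read as −log10 of the q-value, because its lowest value was 1.3. It grows with sequencing depth, which is unknown because the files hold no reads, and DiffBind, the authors' tool for reads, was not run. The methods name q ≤ 0.01 (a score of 2), whereas 133, 259, 267 and 603 peaks scored under 2, none of them at an AP-1 gene.

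Peaks of chromosomes 1 to 19, X and Y overlapping by at least 1 bp were merged, with the same 60710 regions from bedtools 2.31.1. Each region was given the top score of every library and the gene of its top peak. After quantile normalisation, log2 heights entered limma 3.58.1 (R 4.3.3, eBayes with trend, Benjamini-Hochberg over all 25442 regions, threshold 0.05), after a test on simulated data. The changes planted in those data were larger than any difference at an AP-1 region. That test therefore does not show whether differences of the size seen here could be detected. Motifs were searched on both strands of GRCm38. Per gene, the promoter region nearest the TSS and the highest region are named, besides all group-specific regions and the 3 largest differences each way. Members and lists were chosen with earlier results of these data known. Other regions were named after their values were seen. Alternatives were other overlaps, score limits, normalisations, gene assignment, a replicate block and leaving out each library. Searching whole regions for motifs was an alternative chosen after seeing the data.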

Additional observations from a re-analysis of the deposited data

How the results depend on the processing

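No AP-1 region was called under any alternative, and AP-1 regions numbered 82 to 99, with 43 to 54 in all libraries used. Leaving out 1 library gave 2 to 10 IL-4-only and 9 to 15 control-only AP-1 regions, a peak difference of -12.5 to -1.5, a median log2 difference of -0.092 to -0.001, and 0 to 14 calls among all regions in place of 6. The median was -0.033 with gaps of up to 500 bp merged and -0.017 with missing peaks set to the lowest score, in place of 0.036. Calls among all regions fell to 0 without a variance trend and with missing peaks at the lowest score. They numbered 14 with the replicate number as a block. The replicate 1 minus 2 differences of the groups correlated at 0.0068, so the numbers were not treated as pairs, and the block changed no call at an AP-1 region. Leaving out 1 library turned signs at Fos +12179 bp (-0.571 to 0.937), Junb -1218 bp (-0.042 to 0.436), Jund +1134 bp (-0.524 to 0.053) and Atf3 -60 bp (-0.458 to 0.137), each without the second control library, and at Fosl2 -707 bp (-0.511 to 0.215), without that library (0.161) or the second IL-4 library. The cause was not tested. Without a library an arm holds 1 sample, which limma assumes to vary like the other group. Means and medians then cover every region with a peak in the remaining libraries, which can be more regions than with all libraries. The depth of the libraries is unknown, 51 AP-1 regions were not tested because a library lacked a peak, and 2 libraries per group limit the precision.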
